A study of Homo sapiens with 10 samples.

Results

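The IL-6 family of cytokines and its route to the nucleus were followed through 10 genes, picked from the files by their symbols: the ligands IL6, LIF and IL11, the receptor chains IL6R, IL6ST, LIFR and OSMR, the kinase JAK1, the transcription factor STAT3 and the feedback inhibitor SOCS3. They are 10 of the 52402 gene symbols in the count files, and all 10 passed the filter on low counts, with 22 to 16326 raw counts per library. BEAS2B, a human bronchial epithelial cell line derived from normal tissue, was transfected with a scrambled miRNA (miRcontrol), a miR-3124-5p mimic (miR3124_mimic), a miR-200b-3p mimic (miR200b_mimic), a miR-92b inhibitor (miR92b_inhibitor) or the 3 reagents together (the 3-miRNA mixed group), and mRNA was sequenced from 2 libraries per group. Lipofectamine 2000 was the carrier in every group, the controls included, and the genotype was wild type throughout. Each single reagent was used at 50 nM and RNA was taken after 48 h, and the sources used here do not give the amount of each reagent in the mixture or whether the replicate libraries came from separate transfections. The adjusted p-values therefore measure the spread between libraries, which may be technical. The study chose the 3 miRNAs from exosomes in the serum of patients with small cell lung cancer and asked what they do in a lung cell. The study displayed genes of the JAK-STAT pathway from these same libraries, and the 10 genes were chosen with earlier results of these data known. Their selection is therefore not independent of these data.

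Cytokines of the IL-6 family signal through receptor complexes that share the chain gp130, encoded by IL6ST. IL-6 and IL-11 first bind their own alpha chains, LIF uses LIFR together with gp130, and oncostatin M can use OSMR together with gp130. Janus kinases bound to the receptor tails, JAK1 foremost among them, phosphorylate STAT3, which enters the nucleus and switches on target genes. One of these targets is SOCS3, which binds gp130 and the kinases and dampens the signal. In airway epithelium the pathway takes part in inflammation and repair. The libraries measured mRNA, so phosphorylated STAT3, secreted cytokine and surface receptor were not measured.

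The mature miRNAs concerned are shown with their seed, bases 2 to 8, in capitals, because the seed is the part that pairs with most target sites. The sequences are RefSeq entries, and the 4 loci all lie on the plus strand of chromosome 1 in GRCh38.p14. The study's panel names miR-92b-5p, but the labels of the inhibitor do not name an arm of miR-92b, so both arms are printed. All 4 seeds differ from each other.
hsa-miR-3124-5p: uUCGCGGGcgaaggcaaaguc
hsa-miR-200b-3p: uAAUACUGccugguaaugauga
hsa-miR-92b-5p: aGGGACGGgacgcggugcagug
hsa-miR-92b-3p: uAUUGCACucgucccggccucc
These sequences lie at 248826383 to 248826403 (miR-3124-5p), 1167160 to 1167181 (miR-200b-3p), 155195196 to 155195217 (miR-92b-5p) and 155195237 to 155195258 (miR-92b-3p). Mature miRNAs are not captured in mRNA libraries, so the transfections could not be checked through the miRNAs themselves.

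The 3′UTRs of the 10 genes were searched on the coding strand for the 7 bases that pair with each seed. The match for miR-3124-5p, CCCGCGA, is rare, in 76 of 12239 3′UTRs of tested genes (0.621%), and none of the 10 genes held it. The match for miR-92b-5p, CCGTCCC, stood in 4.18% of 3′UTRs and likewise in none of the 10. The match for miR-200b-3p, CAGTATT, stood in 19.5% of 3′UTRs and in 1 of the 10 genes, OSMR, at bases 730 to 736 and 1994 to 2000 of its 2197-base 3′UTR. The match for miR-92b-3p, GTGCAAT, stood in 13.1% of 3′UTRs and in 2 of the 10 genes, IL6ST and OSMR. In IL6ST it fell at bases 4117 to 4123 and 4204 to 4210 of a 5987-base 3′UTR, and a match in OSMR fell at bases 1116 to 1122. The sites given here are shown with 10 bases on either side and the match in capitals, read along the mRNA.
OSMR, miR-200b-3p match, chr5:38934164-38934190: ccatagacatCAGTATTctgccatcat
OSMR, miR-200b-3p match, chr5:38935428-38935454: actttagggcCAGTATTgtcagcattt
IL6ST, miR-92b-3p match, chr5:55936949-55936975: aaaaataaatGTGCAATttgctagtag
IL6ST, miR-92b-3p match, chr5:55936862-55936888: tttcttctaaGTGCAATcctttcatgt
OSMR, miR-92b-3p match, chr5:38934550-38934576: ggttcttttgGTGCAATctcagctcac
Coordinates are GRCh38, with OSMR on the plus strand and IL6ST on the minus strand. A match is a string of letters and was not tested as a binding site.

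Library totals ranged from 13587666 to 18503890 counts, and 14884 genes were tested. BEAS2B carried epithelial keratins together with mesenchymal genes. Of 8 epithelial markers, 6 lay above the floor (more than 3 counts in at least 1 library of the group) in miRcontrol, while the adhesion gene CDH1 had at most 3 counts per library in miRcontrol and in miR92b_inhibitor and KRT14 lay at the floor in every group. The summed level of these markers was 2220 to 2268 CPM (counts scaled to 1000000 per library) in miRcontrol, 2774 to 2781 with miR3124_mimic, 4188 to 4270 with miR200b_mimic, 2098 to 2188 with miR92b_inhibitor and 4081 to 4109 in the mixed group. Of 6 mesenchymal markers, DCN lay at the floor in every group and PDGFRA in miRcontrol, miR200b_mimic and miR92b_inhibitor. Their summed level was 7325 to 7347 CPM in miRcontrol and 4408 to 4530, 4617 to 4672, 6830 to 6976 and 4969 to 4990 CPM in the same order. Single markers of the epithelial and mesenchymal lists did not all follow these sums, as KRT19 and COL1A1 show below. Of 5 leukocyte markers, PTPRC, CD3E and MS4A1 lay at the floor in every group. The other leukocyte markers, CD14 and CD68, did not: CD14 rose 11.2-fold with miR3124_mimic (12.7 and 12.4 CPM against 0.801 and 1.43 CPM in miRcontrol, edgeR adjusted p = 7.96e-18), and CD68 rose 1.49-fold with miR92b_inhibitor (edgeR adjusted p = 5.08e-08). On the log2 scale CD14 fell by 1.38 and CD68 fell by 0.52 with miR200b_mimic, and in the mixed group CD14 rose by 0.76 and CD68 fell by 0.20. The leukocyte list summed to 27.2 to 28.6 CPM in miRcontrol, 36.1 to 36.3 with miR3124_mimic, 17.7 to 20.3 with miR200b_mimic, 40.03 to 42.1 with miR92b_inhibitor and 24.6 to 25.7 in the mixed group. All 3 endothelial markers lay at the floor in miRcontrol, and their sum was at most 1.24 CPM in every group but miR3124_mimic, where it was 3.06 to 4.78 CPM and CDH5 was higher by at least 18.6-fold against the floor of 3 counts. The part of these marker shifts in the values of the 10 genes was not tested. In bulk RNA, a change in the number of cells of a type and a change in RNA per cell cannot be told apart.

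More of the 10 genes were raised than lowered in each comparison with miRcontrol. The 10 were chosen with earlier results of these data known, so their counts are a description only. The 4 comparisons share the same 2 control libraries, so a low or high control value enters all of them. A gene was called where the quasi-likelihood test of edgeR, adjusted by Benjamini-Hochberg over all tested genes, gave an adjusted p under 0.05, and calls were common among all genes, so each count is read against the share of all tested genes called the same way. In miR3124_mimic, 8 genes rose and 1 fell, against 25.7% of all tested genes higher and 25.3% lower. In miR200b_mimic, 7 rose and 2 fell, against 21.4% higher and 19.1% lower. In miR92b_inhibitor, 7 rose and 1 fell, against 17.5% higher and 18.2% lower. In the mixed group 9 rose and none fell, against 21.5% higher and 21.1% lower. The tenth gene in the mixed group, JAK1, gave a log2 fold change of -0.09 with an adjusted p of 0.0821 by the same edgeR test. Its unadjusted p by edgeR was 0.0385, so 1 gene was lower at an unadjusted p under 0.05, and DESeq2 called 0 lower.

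Over the 10 genes the median log2 fold change was 0.63 with miR3124_mimic, 0.34 with miR200b_mimic, 0.39 with miR92b_inhibitor and 0.50 in the mixed group, while that of all tested genes was between -0.01 and 0.00. At least a 2-fold rise was called for 3 genes in miR3124_mimic (IL11, IL6R and LIFR), against 5.37% of all tested genes. In miR200b_mimic it was called for 2 (IL6 and IL6R), against 2.72%. In miR92b_inhibitor it was called for 1 (IL6), against 0.988%, and in the mixed group for 3 (IL6, IL11 and IL6R), against 3.14%.

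**Figure D1:**
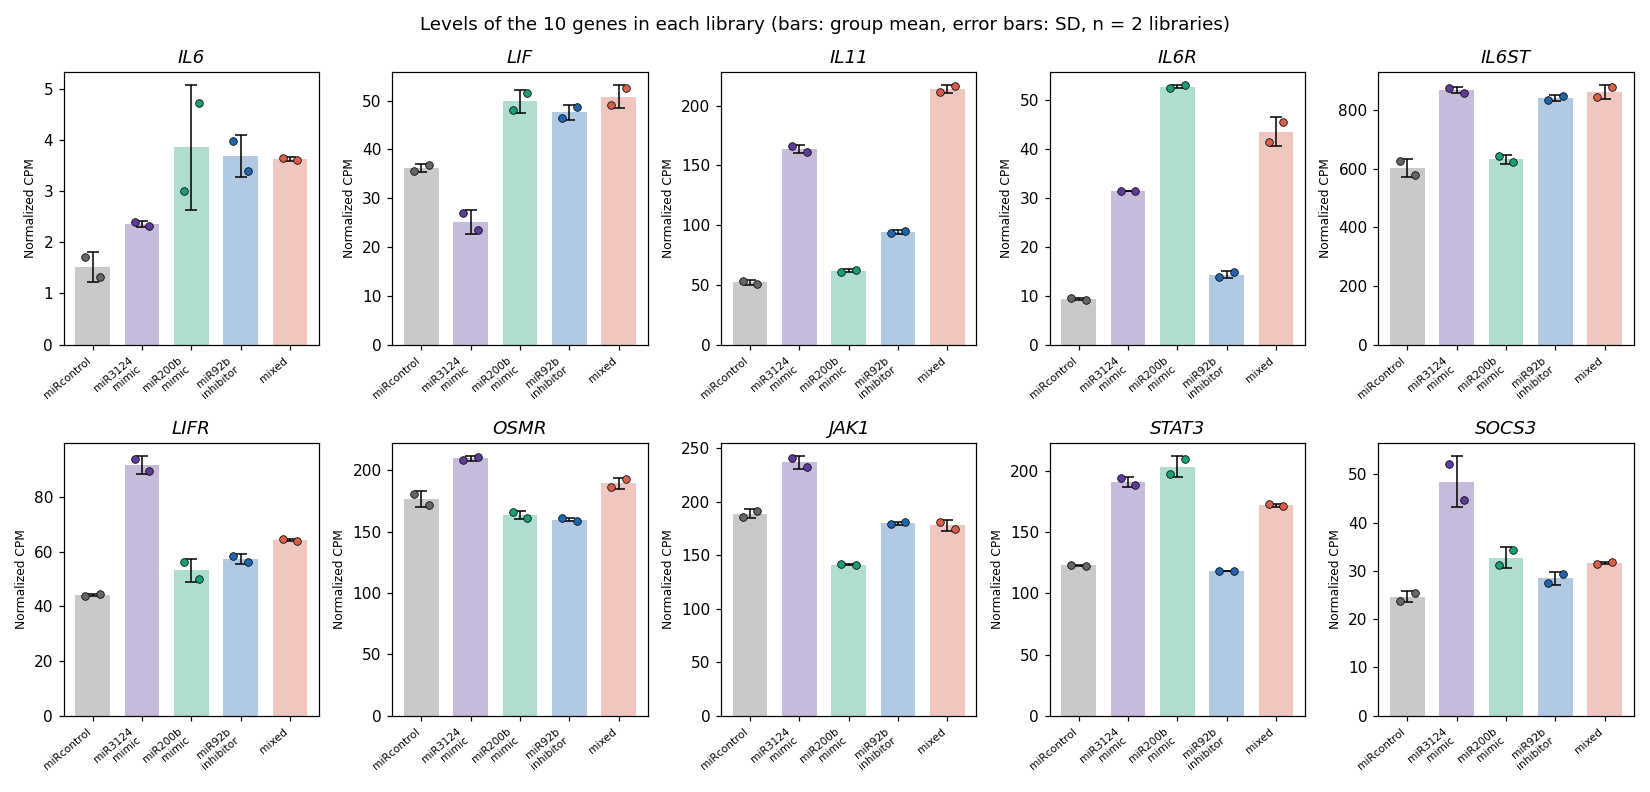
Normalized CPM of each of the 10 genes (y axis, linear, starting at 0) in the 5 groups (x axis). Points are the 2 libraries of a group, bars their mean and error bars the SD. IL11 was highest in the mixed group at 214 CPM, IL6R highest in miR200b_mimic at 52.7 CPM, and LIF fell under its control level in miR3124_mimic, at 25.2 CPM.

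IL11, on chromosome 19 (55364389 to 55370463, minus strand), encodes a cytokine linked to fibrosis and epithelial repair, and it gave the widest range among the ligands. Its 2 libraries per group read 53.5 and 50.6 CPM in miRcontrol, 166 and 161 with miR3124_mimic, 61.1 and 62.6 with miR200b_mimic, 93.0 and 95.1 with miR92b_inhibitor, and 212 and 216 in the mixed group. All 5 groups stood apart, and every transfected library lay above both controls. The rise was 3.14-fold with miR3124_mimic (log2 1.65, SE 0.0491, edgeR adjusted p = 8.25e-31) and 4.11-fold in the mixed group (log2 2.04, SE 0.0475, edgeR adjusted p = 1.88e-34). It was smaller in miR92b_inhibitor, at 1.81-fold (edgeR adjusted p = 3.99e-18), and smallest in miR200b_mimic, at 1.19-fold (edgeR adjusted p = 0.000265).

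IL6, on chromosome 7 (22725884 to 22732002, plus strand), encodes the cytokine that names the family and drives the acute phase response, and per kilobase of exon it was the least abundant of the 10 genes in every group. The 2 miRcontrol libraries held 30 and 22 counts, against 35 and 41 with miR3124_mimic, 40 and 82 with miR200b_mimic, 68 and 62 with miR92b_inhibitor, and 66 and 67 in the mixed group. As normalized levels these are 1.72 and 1.31 CPM, 2.39 and 2.32, 2.99 and 4.72, 3.97 and 3.39, and 3.65 and 3.61 CPM. Each transfected library lay above both controls, and the miR200b_mimic pair spanned the values of miR92b_inhibitor and the mixed group, so these 3 groups overlapped. IL6 rose 2.58-fold with miR200b_mimic (log2 1.37, SE 0.267, edgeR adjusted p = 3.64e-05), 2.41-fold with miR92b_inhibitor (log2 1.27, SE 0.265, edgeR adjusted p = 0.000138) and 2.38-fold in the mixed group (log2 1.25, SE 0.264, edgeR adjusted p = 0.000109). In miR3124_mimic its log2 fold change of 0.63 (SE 0.291) did not pass, with an edgeR adjusted p of 0.0683. The value in miR200b_mimic moved between 0.98 and 1.63 on the log2 scale over the alternatives, the lowest without replicate 2 of that group, and stayed past the threshold.

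LIF, on chromosome 22 (30240447 to 30246851, minus strand), encodes leukemia inhibitory factor, which signals through LIFR and gp130. It was the one ligand that moved in opposite directions: 35.6 and 36.8 CPM in miRcontrol, but 26.9 and 23.4 with miR3124_mimic and 48.1 and 51.5 with miR200b_mimic. The miR92b_inhibitor libraries gave 46.4 and 48.7 CPM and those of the mixed group 49.1 and 52.5, and these overlapped with each other or with miR200b_mimic while lying above both controls. LIF fell by 0.53 on the log2 scale in miR3124_mimic (SE 0.0777, edgeR adjusted p = 1.17e-07). It rose by 0.47 with miR200b_mimic (SE 0.0699, edgeR adjusted p = 3.03e-07), by 0.40 with miR92b_inhibitor (edgeR adjusted p = 8.64e-06) and by 0.49 in the mixed group (edgeR adjusted p = 5.14e-08). Per kilobase of exon, IL11 stood above LIF in every group, with a ratio of 2.14 ± 0.135 (SD, n = 2) in miRcontrol, 9.69 ± 0.748 with miR3124_mimic, 1.85 ± 0.0592 with miR200b_mimic, 2.94 ± 0.0509 with miR92b_inhibitor and 6.26 ± 0.198 in the mixed group. These ratios are descriptions and were not tested.

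IL6R, on chromosome 1 (154405193 to 154469450, plus strand), encodes the alpha chain that binds IL-6 before gp130 joins, and it showed the largest spread of the 10 genes, 5.66-fold between its lowest and highest group. Its libraries read 9.5 and 9.13 CPM in miRcontrol, 31.3 and 31.5 with miR3124_mimic, 52.5 and 53.0 with miR200b_mimic, 13.8 and 14.8 with miR92b_inhibitor, and 41.4 and 45.6 in the mixed group. The 5 groups did not overlap. The rise was 5.66-fold with miR200b_mimic (log2 2.50, SE 0.0890, edgeR adjusted p = 1.57e-27), 4.66-fold in the mixed group (log2 2.22, SE 0.0898, edgeR adjusted p = 2.43e-25) and 3.37-fold with miR3124_mimic (log2 1.75, SE 0.0958, edgeR adjusted p = 1.02e-20). In miR92b_inhibitor it was 1.53-fold (log2 0.62, SE 0.109, edgeR adjusted p = 1.11e-05). The groups with the highest IL6R, miR200b_mimic and the mixed group, were also those with the highest summed epithelial markers. Most of that sum was KRT7, KRT8 and KRT18, and single markers differed. EPCAM averaged 0.289 CPM in miRcontrol, 0.375 CPM with miR3124_mimic, 10.2 CPM with miR200b_mimic and 5.48 CPM in the mixed group. CDH1, at the floor in miRcontrol, averaged 0.300 CPM with miR3124_mimic, 9.97 CPM with miR200b_mimic and 2.24 CPM in the mixed group. KRT19 averaged 8.20 CPM in miRcontrol and 14.4 CPM with miR200b_mimic. It was lower in the mixed group, at 2.62 CPM, and with miR3124_mimic, at 0.760 CPM, although IL6R rose in both. The part of these marker shifts in the IL6R values was not tested.

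IL6ST, on chromosome 5 (55935095 to 55994993, minus strand), encodes gp130, the chain shared by the receptors of IL-6, IL-11 and LIF. Its libraries gave 625 and 579 CPM in miRcontrol, 875 and 859.7 with miR3124_mimic, 642 and 622 with miR200b_mimic, 834 and 849 with miR92b_inhibitor, and 843 and 878 in the mixed group. The values fell on 2 levels: miRcontrol and miR200b_mimic overlapped at the lower one, and the other 3 groups overlapped with a neighbour at the upper one. IL6ST rose by 0.53 on the log2 scale in miR3124_mimic (SE 0.0361, edgeR adjusted p = 3.32e-17), by 0.48 with miR92b_inhibitor (SE 0.0360, edgeR adjusted p = 4.18e-15) and by 0.52 in the mixed group (SE 0.0359, edgeR adjusted p = 1.15e-16). In miR200b_mimic the log2 fold change of 0.07 (SE 0.0364) did not pass (edgeR adjusted p = 0.128). Without miRcontrol replicate 1 it became 0.13 with an edgeR adjusted p of 0.0206. The miR-92b-3p match shown above is also present in OSMR, whose log2 fold change in miR92b_inhibitor was -0.14, a call lost without single libraries. The study's panel holds miR-92b-5p, whose seed match stood in neither gene, and the arm of the inhibitor is not named. The part of the matches in the values of either gene was not tested.

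Per kilobase of exon, IL6ST was the most abundant of the 10 genes in every group, at 64.8 CPM per kb in miRcontrol and 92.7 in the mixed group, and IL6R stood far below it at 1.44 and 6.74 CPM per kb. The ratio of IL6R to IL6ST per length was 0.0223 ± 0.000562 (SD, n = 2) in miRcontrol, 0.0521 ± 0.000787 with miR3124_mimic, 0.120 ± 0.00359 with miR200b_mimic, 0.0244 ± 0.000929 with miR92b_inhibitor and 0.0727 ± 0.00290 in the mixed group. The alpha chain transcript thus remained the minor partner of the shared chain transcript even where IL6R was highest.

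LIFR, on chromosome 5 (38474963 to 38608354, minus strand), encodes the chain that pairs with gp130 for LIF. Its libraries read 43.9 and 44.5 CPM in miRcontrol, 94.1 and 89.6 with miR3124_mimic, 56.2 and 50.2 with miR200b_mimic, 58.6 and 56.2 with miR92b_inhibitor, and 64.5 and 64.1 in the mixed group. Only miR200b_mimic and miR92b_inhibitor met, and all transfected libraries lay above both controls. LIFR rose 2.07-fold with miR3124_mimic (log2 1.05, SE 0.0584, edgeR adjusted p = 1.72e-20), the group in which its ligand LIF was lowest. It rose by 0.54 on the log2 scale in the mixed group (edgeR adjusted p = 2.27e-10), by 0.38 with miR92b_inhibitor (edgeR adjusted p = 2.66e-06) and by 0.26 with miR200b_mimic (edgeR adjusted p = 0.000758).

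STAT3 can bind the palindrome TTCNNNGAA, which reads the same on both strands, so the promoters (250 bases before to 50 after each annotated start, from RefSeq) were searched for it. Of the 9 members with a promoter in the table, LIFR was the one that held it, at 2 of its starts, against 8.63% of 10434 tested genes. Both stretches are printed along the gene with the motif in capitals.
LIFR, chr5:38595552-38595580, GRCh38.p14, minus strand: ccattactagTTCCTTGAAccacaatcca
LIFR, chr5:38557631-38557659, GRCh38.p14, minus strand: gctttggagtTTCATCGAAaggtctttaa
The motifs begin 165 and 182 bases before their starts. Neither stretch was tested for binding, and which start was used is not visible in counts per gene.

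OSMR, on chromosome 5 (38845858 to 38945596, plus strand), encodes the oncostatin M chain, and it varied least, 1.31-fold between its lowest and highest group. Its libraries gave 181 and 172 CPM in miRcontrol, 208 and 211 with miR3124_mimic, 166 and 161 with miR200b_mimic, 161 and 159 with miR92b_inhibitor, and 186 and 192 in the mixed group. The groups stood apart by narrow gaps, with miRcontrol in the middle. OSMR rose by 0.25 on the log2 scale in miR3124_mimic (SE 0.0408, edgeR adjusted p = 1.2e-06). It fell by 0.11 with miR200b_mimic (SE 0.0420, edgeR adjusted p = 0.0317) and by 0.14 with miR92b_inhibitor (edgeR adjusted p = 0.00502). It rose by 0.10 in the mixed group (edgeR adjusted p = 0.0412). These last 3 calls were lost without single libraries. In miR200b_mimic the log2 fold change was -0.07 without miRcontrol replicate 1 (edgeR adjusted p = 0.333) and -0.09 without miR200b_mimic replicate 2 (edgeR adjusted p = 0.202). In miR92b_inhibitor it was -0.11 without miRcontrol replicate 1 (edgeR adjusted p = 0.129) and -0.13 without its own replicate 2 (edgeR adjusted p = 0.0566). In the mixed group it was 0.06 without miRcontrol replicate 2 (edgeR adjusted p = 0.371) and 0.07 without its own replicate 2 (edgeR adjusted p = 0.283).

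JAK1, on chromosome 1 (64833229 to 64966504, minus strand), encodes the Janus kinase most used by gp130, and it moved in opposite directions in the 2 mimics. Its libraries read 186 and 192 CPM in miRcontrol, 241 and 233 with miR3124_mimic, 141 and 141 with miR200b_mimic, 179 and 181 with miR92b_inhibitor, and 181 and 174 in the mixed group. The mixed group and miR92b_inhibitor overlapped just under the controls, while both mimics stood clear of them. JAK1 rose by 0.33 on the log2 scale in miR3124_mimic (SE 0.0399, edgeR adjusted p = 1.66e-09) and fell by 0.42 with miR200b_mimic (SE 0.0421, edgeR adjusted p = 1.25e-11). In miR92b_inhibitor its log2 fold change was -0.07 (edgeR adjusted p = 0.183).

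STAT3, on chromosome 17 (42313324 to 42388568, minus strand), rose in both mimics and in the mixture, and not in the inhibitor. Its libraries gave 123 and 122 CPM in miRcontrol, 194 and 188 with miR3124_mimic, 197 and 209 with miR200b_mimic, 118 and 118 with miR92b_inhibitor, and 173 and 171 in the mixed group. The groups did not overlap. The rise was 1.66-fold with miR200b_mimic (log2 0.73, SE 0.0428, edgeR adjusted p = 2.61e-19), 1.55-fold with miR3124_mimic (log2 0.64, SE 0.0428, edgeR adjusted p = 1.73e-17) and 1.40-fold in the mixed group (log2 0.48, SE 0.0427, edgeR adjusted p = 2.67e-13). The log2 fold change of -0.06 with miR92b_inhibitor (SE 0.0445) did not pass, with an edgeR adjusted p of 0.352. In miR200b_mimic the transcription factor was thus higher and its kinase JAK1 lower than in miRcontrol. The summed mesenchymal markers were lowest in the same 3 groups in which STAT3 rose, between 4408 and 4990 CPM against 6830 to 6976 CPM in miR92b_inhibitor. Most of that sum was VIM and FN1. VIM averaged 3800 CPM in miRcontrol and 813, 2982 and 2729 CPM with miR3124_mimic, miR200b_mimic and the mixture. FN1 averaged 3264 CPM in miRcontrol and 3383, 1407 and 1990 CPM in that order. COL1A1 went the other way, from 12.0 CPM in miRcontrol to 23.8, 36.9 and 22.0 CPM, and averaged 6.41 CPM with miR92b_inhibitor. The part of these markers in the STAT3 values was not tested.

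SOCS3, on chromosome 17 (78356778 to 78360077, minus strand), encodes the feedback inhibitor, itself a STAT3 target. Its libraries read 23.8 and 25.5 CPM in miRcontrol, 52.2 and 44.8 with miR3124_mimic, 31.2 and 34.3 with miR200b_mimic, 27.5 and 29.4 with miR92b_inhibitor, and 31.5 and 31.8 in the mixed group. Every transfected library lay above both controls, the mixed group lay within the range of miR200b_mimic, and miR3124_mimic stood above all others. SOCS3 rose 1.96-fold with miR3124_mimic (log2 0.97, SE 0.0789, edgeR adjusted p = 1.04e-14). It rose by 0.42 on the log2 scale in miR200b_mimic (edgeR adjusted p = 6.01e-05) and by 0.36 in the mixed group (edgeR adjusted p = 0.000319). In miR92b_inhibitor the log2 fold change of 0.21 passed narrowly (edgeR adjusted p = 0.0486) and was lost without any 1 of the 4 libraries compared (miRcontrol or miR92b_inhibitor, replicate 1 or 2), with edgeR adjusted p-values of 0.0545 to 0.284. Per kilobase, the ratio of SOCS3 to STAT3 was 0.647 ± 0.0339 (SD, n = 2) in miRcontrol, 0.817 ± 0.0718 with miR3124_mimic, 0.519 ± 0.0133 with miR200b_mimic, 0.776 ± 0.0381 with miR92b_inhibitor and 0.593 ± 0.00872 in the mixed group, a description with no test.

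**Figure D2:**
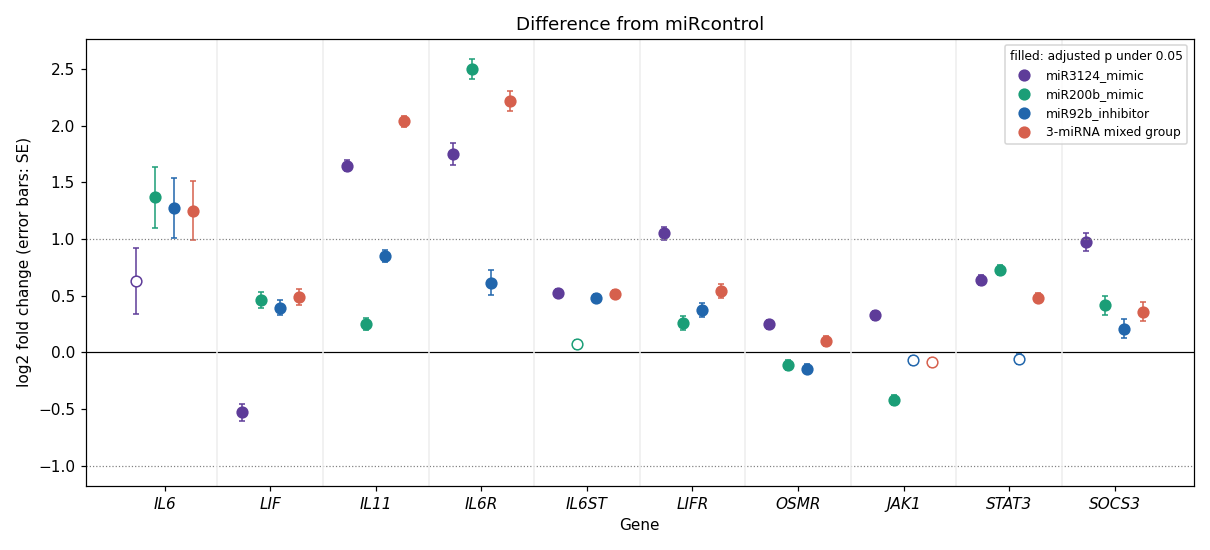
Log2 fold change against miRcontrol (y axis) of the 10 genes (x axis) in the 4 transfected groups, with error bars for the SE and filled points where the adjusted p is under 0.05. IL6R and IL11 carry the largest rises, 2.50 and 2.04. The called decreases are LIF in miR3124_mimic and JAK1 and OSMR in miR200b_mimic, with OSMR also lower in miR92b_inhibitor.

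The mixed group was then set against each single reagent. Its control is a single transfection in each case, and the amount of each reagent in the mixture is not known, so dose and combination cannot be told apart. The 3 comparisons share the 2 libraries of the mixed group. Against miR3124_mimic, 4 genes were higher and 5 lower, where 25.3% of all tested genes were higher and 23.8% lower. Against miR200b_mimic, 5 were higher and 2 lower, with 18.2% and 20.4% of all genes. Against miR92b_inhibitor, 5 were higher and 0 lower, with 19.7% and 19.9%. The other 5 genes in that last comparison had log2 fold changes between -0.02 and 0.15 and did not pass by edgeR, 0 of them had an unadjusted p under 0.05, and DESeq2 also called 0 lower.

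IL11 was the only one of the 10 genes that was called higher in the mixed group than in all 3 single transfections. It was higher by 0.39 on the log2 scale than in miR3124_mimic (SE 0.0413, edgeR adjusted p = 4.66e-11), by 1.79 than in miR200b_mimic (SE 0.0472, edgeR adjusted p = 2.83e-32) and by 1.19 than in miR92b_inhibitor (SE 0.0435, edgeR adjusted p = 7.8e-27). None of the 10 was called lower than in all 3. IL6R, LIFR and OSMR were higher than in 2 of the singles and lower than in the other one.

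IL6R in the mixed group lay under miR200b_mimic by 0.28 (edgeR adjusted p = 0.000871) and above miR3124_mimic by 0.47 (edgeR adjusted p = 4.68e-07). LIFR lay under miR3124_mimic by 0.51 (edgeR adjusted p = 5.83e-11), and so did SOCS3 by 0.61 (edgeR adjusted p = 2.21e-09) and JAK1 by 0.41 (edgeR adjusted p = 3.36e-12). STAT3 lay under both mimics, by 0.15 against miR3124_mimic (edgeR adjusted p = 0.00171) and by 0.24 against miR200b_mimic (edgeR adjusted p = 3.53e-06), and above miR92b_inhibitor by 0.54 (edgeR adjusted p = 1.01e-14). LIF was 2.03-fold higher than in miR3124_mimic (log2 1.02, edgeR adjusted p = 2.63e-16) and did not differ by a called amount from the other 2 singles, in which it had risen alone.

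IL6ST in the mixed group was higher than in miR200b_mimic by 0.45 (edgeR adjusted p = 2.61e-14), while its log2 fold changes of -0.01 against miR3124_mimic (SE 0.0356) and 0.03 against miR92b_inhibitor (SE 0.0355) did not pass. Narrower calls rested on single libraries. IL6 against miR3124_mimic (log2 0.62, edgeR adjusted p = 0.0319) was lost without any 1 of the 4 libraries compared (mixed group or miR3124_mimic, replicate 1 or 2), with edgeR adjusted p-values of 0.0834 to 0.128. LIFR against miR92b_inhibitor (log2 0.16, edgeR adjusted p = 0.0202) was lost without miR92b_inhibitor replicate 2 (log2 0.13, edgeR adjusted p = 0.177) and without replicate 1 or 2 of the mixed group (edgeR adjusted p = 0.0918 and 0.0741). OSMR against miR3124_mimic (log2 -0.15, edgeR adjusted p = 0.002) became -0.12 without replicate 1 of the mixed group (edgeR adjusted p = 0.0543).

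**Figure D3:**
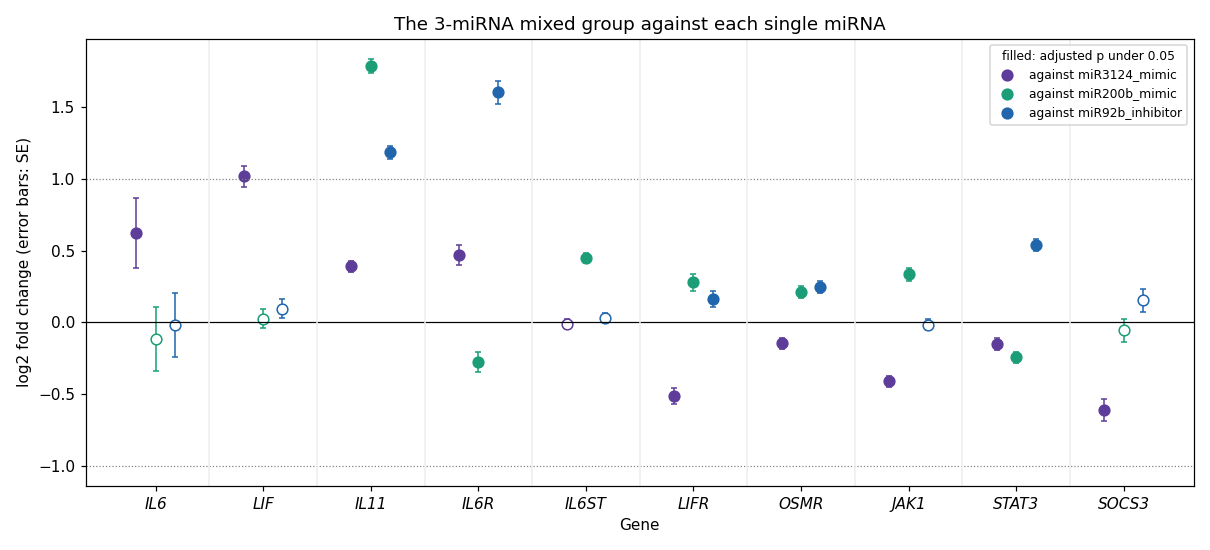
Log2 fold change of the 3-miRNA mixed group against each single transfection (y axis) for the 10 genes (x axis), with error bars for the SE and filled points where the adjusted p is under 0.05. All 3 points of IL11 are filled and above 0, at 0.39, 1.79 and 1.19, and SOCS3 has 1 filled point, at -0.61 against miR3124_mimic.

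The rest of the pathway was described through 68 further genes in 9 lists, and 52 of them were abundant enough to be tested. Of these 52, 20 rose and 16 fell in miR3124_mimic, 21 and 12 with miR200b_mimic, 19 and 6 with miR92b_inhibitor, and 23 and 11 in the mixed group. Their median log2 fold changes of 0.02, 0.05, 0.07 and 0.07 lay close to those of all tested genes, and they were the same to 2 decimals with SAA2 at its bound. The counts of risen genes, out of 52, stand beside backgrounds of 25.7%, 21.4%, 17.5% and 21.5% of all tested genes. Those of fallen genes stand beside 25.3%, 19.1%, 18.2% and 21.1% of all tested genes called lower. The 16 that did not pass the filter include OSM, the ligand of OSMR, with 0 to 1 counts per library, as well as IL27 and IL31, which had 0 counts in every library, and the acute phase genes CRP, HP, FGA, FGB and FGG.

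Among receptor chains outside the 10, IL11RA (the alpha chain for IL-11), IL27RA and IL31RA all rose in miR3124_mimic, and IL31RA also rose in miR200b_mimic, by 0.28. With miR3124_mimic, IL11RA rose by 1.26 on the log2 scale (SE 0.295, edgeR adjusted p = 0.000344) and IL27RA by 1.04 (SE 0.118, edgeR adjusted p = 1.99e-10). In miR200b_mimic, IL27RA fell by 0.87 (SE 0.152, edgeR adjusted p = 6.34e-06) and IL11RA fell by 0.97 (SE 0.392, edgeR adjusted p = 0.0448). The IL11RA call was lost without miRcontrol replicate 2 (log2 -0.69, edgeR adjusted p = 0.303) and without miR200b_mimic replicate 2 (log2 -0.57, edgeR adjusted p = 0.402). IL31RA and IL27RA also rose in the mixed group, by 0.62 and 0.51, and with miR92b_inhibitor the 3 log2 fold changes were between -0.03 and 0.10. Of 3 other ligands or ligand partners tested, 2 fell with miR3124_mimic, where 25.3% of all tested genes were lower. With miR92b_inhibitor 1 rose, where 17.5% of all tested genes were higher. CLCF1 fell by 0.67 with miR3124_mimic (edgeR adjusted p = 4.22e-05). CTF1 (cardiotrophin) fell by 1.23 with miR3124_mimic (edgeR adjusted p = 0.00246), a call lost without replicate 1 of that group (log2 -0.68, edgeR adjusted p = 0.119).

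Genes known as STAT3 targets moved in both directions. Of 16, 8 rose and 5 fell in miR3124_mimic, 11 and 3 with miR200b_mimic, 11 and 2 with miR92b_inhibitor, and 11 and 3 in the mixed group, with medians of 0.07, 0.24, 0.18 and 0.29 on the log2 scale. Of all tested genes, 25.7%, 21.4%, 17.5% and 21.5% were higher and 25.3%, 19.1%, 18.2% and 21.1% lower in the same order. The transcription factor gene CEBPD rose by 1.26 with miR3124_mimic (edgeR adjusted p = 3.08e-08) by 1.09 with miR200b_mimic (edgeR adjusted p = 1.65e-06) and by 0.64 in the mixed group (edgeR adjusted p = 0.00356). CEBPB rose by 0.86 with miR92b_inhibitor (edgeR adjusted p = 1.31e-17), the group in which STAT3 itself was not called, by 0.63 in the mixed group and by 0.32 with miR200b_mimic, and it fell by 0.54 with miR3124_mimic (edgeR adjusted p = 5.04e-10), where STAT3 rose. The adhesion gene ICAM1 rose in all 4 groups, by 1.03 in the mixed group (edgeR adjusted p = 3.59e-24), 0.65 with miR92b_inhibitor (edgeR adjusted p = 1.04e-15), 0.31 with miR3124_mimic and 0.25 with miR200b_mimic. The cell cycle gene CCND1 fell by 0.92 with miR3124_mimic (edgeR adjusted p = 6.21e-27) and by 0.10 in the mixed group, and rose by 0.15 with miR200b_mimic and 0.21 with miR92b_inhibitor. The survival and division gene BIRC5 fell in all 4 groups, by 0.75 with miR3124_mimic (edgeR adjusted p = 4.14e-19), 0.66 in the mixed group (edgeR adjusted p = 3.67e-17), 0.42 with miR200b_mimic (edgeR adjusted p = 8.69e-11) and 0.25 with miR92b_inhibitor (edgeR adjusted p = 9.53e-06). The kinase gene PIM1 fell by 0.44 with miR92b_inhibitor (edgeR adjusted p = 0.00207) and by 0.50 in the mixed group (edgeR adjusted p = 0.000338).

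The acute phase genes SAA1 and SAA2, whose proteins are released in inflammation, were the 2 of 11 that passed the filter, and their near-identical sequences make the split of reads between them uncertain. SAA1 had 6 and 4 counts in miRcontrol, 8 and 11 with miR3124_mimic, 9 and 16 with miR200b_mimic, 19 and 30 with miR92b_inhibitor, and 60 and 66 in the mixed group. Every transfected library was above both controls, but with miR3124_mimic the log2 fold change of 0.99 did not pass (SE 0.577, edgeR adjusted p = 0.154). SAA1 rose by 3.52 on the log2 scale in the mixed group (SE 0.410, edgeR adjusted p = 7.57e-10), by 2.21 with miR92b_inhibitor (SE 0.479, edgeR adjusted p = 0.00023) and by 1.45 with miR200b_mimic (SE 0.544, edgeR adjusted p = 0.0294). The last call was lost without miRcontrol replicate 1 or 2 or miR200b_mimic replicate 2 (edgeR adjusted p = 0.0602, 0.159 and 0.217). SAA2 had 0 and 1 counts in miRcontrol, and against a floor of 3 counts per library its level was higher by at least 2.26-fold with miR3124_mimic, 3.18-fold with miR200b_mimic, 2.87-fold with miR92b_inhibitor and 4.35-fold in the mixed group.

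Kinases, inhibitors and adaptors outside the 10 moved in both directions, in short lists to be read beside the shares of all tested genes (25.7%, 21.4%, 17.5% and 21.5% higher and 25.3%, 19.1%, 18.2% and 21.1% lower with miR3124_mimic, miR200b_mimic, miR92b_inhibitor and the mixture). The Janus kinase gene TYK2 fell by 0.43 with miR3124_mimic (edgeR adjusted p = 5.32e-09), by 0.38 with miR92b_inhibitor (edgeR adjusted p = 1.99e-07) and by 0.51 in the mixed group (edgeR adjusted p = 5.93e-11). Of 5 other STAT genes, 4 rose and 1 fell with miR3124_mimic, 1 rose with miR200b_mimic, 1 rose with miR92b_inhibitor, and 3 rose and 1 fell in the mixed group. The gene that fell was STAT5B both times, by 0.37 with miR3124_mimic (edgeR adjusted p = 6.2e-05) and by 0.33 in the mixed group (edgeR adjusted p = 0.000331). Of 14 other inhibitors, 1 rose and 4 fell in miR3124_mimic, 5 and 4 with miR200b_mimic, 3 and 1 with miR92b_inhibitor, and 4 and 3 in the mixed group. SOCS4, a relative of SOCS3, fell by 0.51 with miR200b_mimic (edgeR adjusted p = 2.47e-11) and rose by 0.27, 0.24 and 0.18 with miR3124_mimic, miR92b_inhibitor and the mixture. PIAS3, an inhibitor of STAT3, fell by 0.55 in the mixed group (edgeR adjusted p = 8.3e-09), 0.24 with miR3124_mimic and 0.20 with miR92b_inhibitor. The phosphatase gene PTPN6 rose by 0.99 in both miR200b_mimic and the mixed group (edgeR adjusted p = 0.000939 and 0.000678), and both calls were lost without miRcontrol replicate 1, each at a log2 fold change of 0.59 (edgeR adjusted p = 0.0927 and 0.0863). Of 4 adaptors, 1 rose and 3 fell in miR3124_mimic, 1 and 2 with miR200b_mimic, 0 and 1 with miR92b_inhibitor, and 0 and 2 in the mixed group. Of the 2 receptor shedding proteases, ADAM10 and ADAM17, both rose in miR3124_mimic, while 1 fell in miR200b_mimic, 1 rose and 1 fell in miR92b_inhibitor, and 1 rose in the mixed group.

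**Figure D4:**
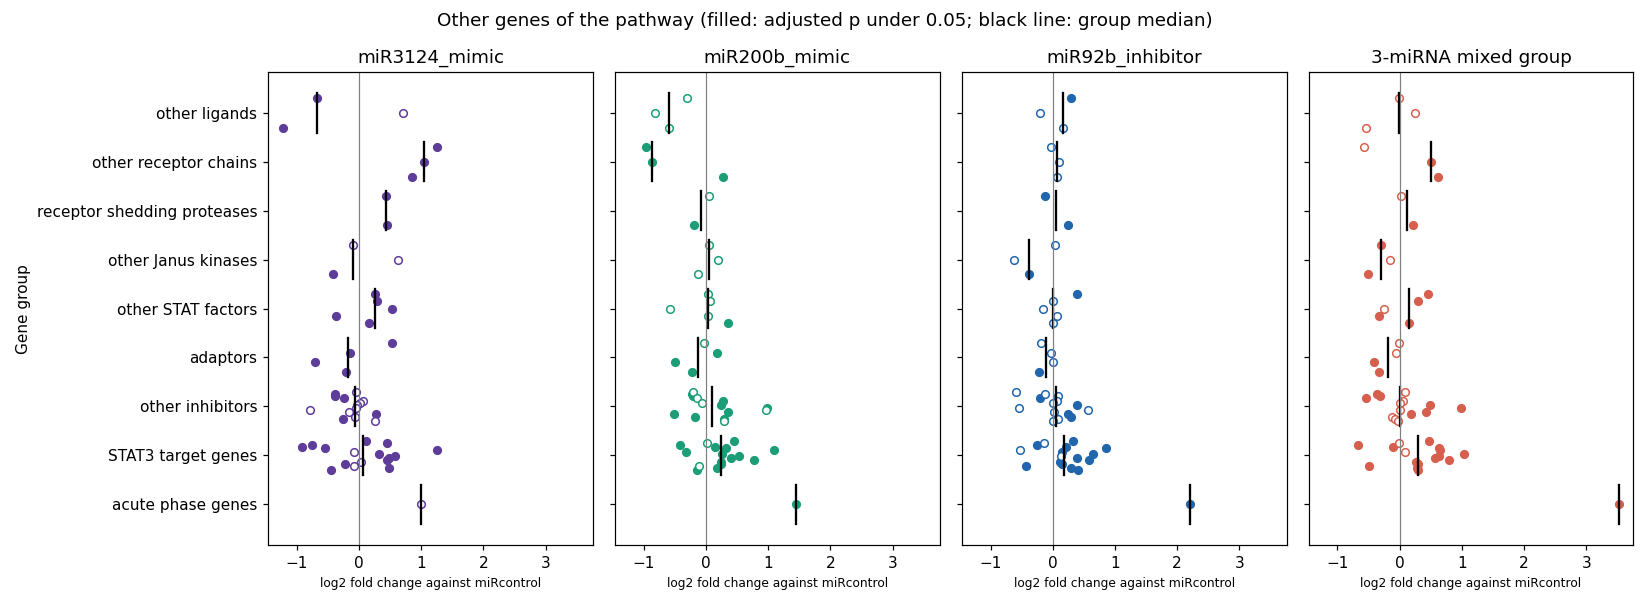
Log2 fold change against miRcontrol (x axis) of the other tested genes of the pathway, by gene list (y axis), in the 4 transfected groups, with filled points where the adjusted p is under 0.05 and a black line at the median of the genes drawn. SAA2 is not drawn because miRcontrol lay at the floor, and the point farthest to the right is SAA1, at 3.52 in the mixed group.

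The genes most like 4 of the members were found by the root mean square difference of the 4 log2 fold changes against miRcontrol, over 12884 genes. This is a description over 4 comparisons that share their controls. LIFR had the closest neighbours, BTN3A1 at 0.0530, PRKCE at 0.0642 and ELOVL4 at 0.0801. IL11 was nearest to POU2F2 at 0.157, ZNF853 at 0.286 and the interferon-induced gene MX1 at 0.317. The neighbours of IL6 were HSPE1-MOB4 at 0.156, IFFO1 at 0.221 and IRAK2 at 0.233, of which the first is a readthrough transcript whose reads overlap those of other genes. IL6R had no close neighbour, since TDGP1 lay at 0.438, PARD6B at 0.482 and GLP2R at 0.490.

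Of the 10 genes, 7 overlap a gene on the opposite strand, and IL11, STAT3 and SOCS3 overlap none. Overlap was taken over whole annotated gene spans, introns included. The library kit keeps strand, but the strand setting of the counting is not given in the sources used here. Whether reads from shared stretches were counted for the right gene is therefore not known. The partners of OSMR and JAK1 were expressed, with 754 to 1280 counts per library for RICTOR and 134 to 224 for RAVER2. The partners in the files for IL6 and LIFR were low, with 0 to 3 counts for STEAP1B and 3 to 13 for LIFR-AS1.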

How the data were processed

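mRNA-sequencing of BEAS2B cells in 5 groups of 2 libraries was analysed. The authors trimmed the reads with FASTX_Trimmer and BBMap, and per the submitters' processing notes mapped them with TopHat to GRCh38. The counting tool, annotation and strand setting are not given in the sources used here. The deposited files hold raw counts of reads for each gene, not normalized. Of 58173 lines per file, 5771 repeat a symbol and were summed.

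edgeR 4.0.16 with limma 3.58.1 in R 4.3.3 was used on the counts: filterByExpr, RLE factors (0.985 to 1.016), and its quasi-likelihood test, fitted over all 10 libraries without a covariate (common dispersion 0.000751). P-values were adjusted by Benjamini-Hochberg over 14884 genes, and a gene was called at an adjusted p under 0.05. The SE is the log2 fold change divided by the square root of F, an approximation. CPM are counts scaled to 1000000 tested counts per library after the RLE factors. Per-kilobase levels and gene positions used exons of GENCODE v29, and 3′UTRs came from its longest coding transcript. A further seed match is not reported here. At these depths the 22 to 82 counts of IL6 leave the widest error. Replicates differed by more than counting noise (chi-square per degree of freedom 1.78 to 2.76), so none was a duplicate.

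The 10 genes, the 68 further genes and the markers were chosen with earlier results of these data known. From the further genes, the text names the 3 largest rises and the 3 largest falls per comparison with miRcontrol, among genes with an adjusted p under 0.05, a mean of at least 1 CPM and both libraries on 1 side of both controls. Names outside that rule are SAA2, IL31RA, CLCF1, STAT5B, ADAM10, ADAM17, overlapping genes, markers and genes under the filter. Likeness was computed for genes with a called 2-fold change. Alternatives were TMM, library totals, no filter, at least 10 counts in every library, DESeq2 1.42.0, the 2 groups alone, a replicate block, and each library left out. The test was tested on simulated data.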

Additional observations from a re-analysis of the deposited data

How the results depend on the processing

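The counts of called genes among the 10 and among the 52 further pathway genes stayed within 1.5 times their reported values under every alternative tried (121 values). Of 770 values of the 10 genes over the alternatives, 734 kept their direction and their side of the threshold, 26 lost and 1 gained the call, and 9 turned their direction. None of the values that turned was a called difference. All of these were comparisons of the mixed group: leaving out 1 library, IL6 against miR200b_mimic ranged from -0.38 to 0.27 and against miR92b_inhibitor from -0.13 to 0.095, LIF against miR200b_mimic from -0.028 to 0.076, IL6ST against miR3124_mimic from -0.038 to 0.023, JAK1 against miR92b_inhibitor from -0.044 to 0.0088 and SOCS3 against miR200b_mimic from -0.12 to 0.016. TMM normalization gave 0.00696 for IL6ST against miR3124_mimic. The causes were not tested. DESeq2 lost the calls of IL6 (mixed group against miR3124_mimic, adjusted p = 0.138), LIFR (mixed group against miR92b_inhibitor, 0.0909), OSMR (miR200b_mimic, 0.0668, and mixed group, 0.0847, against miRcontrol) and SOCS3 (miR92b_inhibitor, 0.148), and of IL11RA (0.125) and SAA1 (0.0766) in miR200b_mimic. Testing all genes without the filter lost OSMR in miR200b_mimic and the mixed group (0.0665 and 0.0772) and SOCS3 in miR92b_inhibitor (0.0744).

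Replicate numbers gave no pairing of libraries: replicate differences correlated between groups at -0.0695 to 0.0598 over 10419 genes. A replicate block left the counts of called members at 9, 9, 8 and 9 against miRcontrol in miR3124_mimic, miR200b_mimic, miR92b_inhibitor and the mixed group, and changed no other call. Under the other scalings the median log2 fold change of all genes was at most 0.033 in absolute value. Depth limits IL6, SAA1, SAA2, CTF1, IL11RA and PTPN6 most.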
